A study of Sus scrofa with 20 samples.

Results

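The sarcomere genes described here, 5 in number, were followed across 4 groups of pig hearts: the cardiac actin ACTC1, the Z-disc protein TCAP, the M-band protein MYOM2, the slow skeletal troponin T TNNT1 and the fast skeletal myosin light chain MYL1. They were chosen by symbol in the probe table of the platform. Each has 1 probe set there, so 5 of 23999 tested probe sets, or 5 of 6765 genes with a symbol, are described. Hearts of 20 female pigs were measured on 1-colour Affymetrix porcine arrays, 1 array per animal and 5 animals per group. RCS hearts underwent 90 min of low-flow ischemia (a coronary stenosis in the labels) in 6 sessions 12 h apart. RCO hearts had their coronary artery occluded 2 times for 10 min with 10 min of reperfusion after each, in 6 sessions 12 h apart. For RCO the sample labels and the series description disagree: the labels give 6 episodes of a 10 min occlusion, and the description gives the paired cycles in each session. SWOP hearts received that paired stimulus in 1 session and were taken after 24 h of reperfusion. Control hearts were sham-operated. The sources used here do not say which part of the heart was sampled or how long after the last session RCS and RCO hearts were taken. The series title asks whether preconditioning after chronic ischemia works through other mechanisms than the classical second window.

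The sarcomere is the contractile unit of striated muscle. Thin filaments of actin, tropomyosin and troponin slide past thick filaments of myosin, thin filaments are anchored at the Z-disc, and thick filaments are cross-linked at the M-band. Several of its proteins exist as cardiac, slow skeletal and fast skeletal isoforms encoded by different genes, and the adult heart uses mainly the cardiac ones. The injured or loaded heart is known to change the balance of isoforms and of structural proteins.

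In RCO hearts the 3 genes of the cardiac sarcomere and the 2 skeletal isoforms moved in opposite directions. ACTC1, TCAP and MYOM2 fell in RCS and in RCO hearts, by 1.25-fold to 3.67-fold in RCS and by 1.33-fold to 2.14-fold in RCO. TNNT1 rose after all 3 protocols, by 2.13-fold to 2.96-fold. MYL1 rose in RCO hearts, 4.07-fold, and did not pass the test against control in RCS or SWOP hearts. A difference passed when its p-value from limma, a linear model fitted to all probe sets and all 20 arrays, was below 0.05 after Benjamini-Hochberg adjustment over all probe sets. Since all 3 comparisons use the same 5 control hearts, they are not independent of each other.

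In RCS against control 4 of the 5 genes passed, 3 lower and 1 higher, where 47.5% of all tested probe sets passed (28.2% lower and 19.3% higher). In RCO against control 5 of 5 passed, 3 lower and 2 higher, where 10.7% of all probe sets passed (4.81% lower and 5.9% higher). In SWOP against control 1 of 5 passed, where 7.15% of all probe sets did (3.01% higher and 4.14% lower, or 722 and 994 probe sets, turning to 861 higher and 644 lower when array medians were set equal). Between protocols, 2 of 5 passed in RCS against SWOP (29.1% of all probe sets, 15.3% lower and 13.8% higher). In RCO against SWOP 3 of 5 passed, 2 lower and 1 higher (10.1% of all probe sets, 6.31% lower and 3.75% higher), and in RCS against RCO 2 of 5, both lower (19.1% of all probe sets, 10.3% lower and 8.75% higher). A second, plainer count asked in how many genes the groups did not overlap at all. In RCS against control the groups were apart for 4 of 5 genes, 3 lower and 1 higher, beside 17.8% of all probe sets lower and 14.8% higher. In RCO against control they were apart for 3 genes, all lower (2.95% of all probe sets lower and 2.88% higher), and in SWOP against control for 2, both lower (6.35% and 5.67%). Between protocols the groups were apart for 2 genes in RCS against SWOP, both lower (11.9% of all probe sets lower and 12% higher). In RCO against SWOP they were apart for 1 gene lower and 1 higher (4.05% and 2.49%), and in RCS against RCO for 1 lower (4.25% and 2.84%). ACTC1, TCAP, MYOM2 and TNNT1 lie among the brightest probe sets, and of those above the 95th percentile of mean signal 33.3% rose and 30.5% fell in RCS, 16.4% rose and 7.42% fell in RCO, and 6.25% rose and 0.667% fell in SWOP. The genes were picked with results of these data known, so these counts describe the 5 genes and do not show that sarcomere genes as a class stand out.

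Several properties of the arrays moved with the groups. The first principal component of all probe sets, with 48.9% of the variance, lay at 26.38 to 64.3 in RCS, −18.34 to 43.96 in RCO, −27.45 to −17.45 in SWOP and −39.85 to −26.65 in control. RCO replicates 2 and 3 scored 44.0 and 29.4, within the RCS range, and the other 3 RCO arrays scored −18.3 to −3.6, below it. The actin control spots, which compare the 3′ and 5′ ends of an actin transcript, had a log2 signal difference of 0.51 to 0.73 in RCS, 0.78 to 1.69 in RCO, 1.22 to 1.7 in SWOP and 1.24 to 1.96 in control. Their 3′ signal itself was 13.73 to 14.13 in RCS, 12.64 to 13.93 in RCO, 12.76 to 13.12 in SWOP and 12.66 to 13.31 in control. The same difference for GAPDH control spots was −0.06 to 0.19 in RCS and −0.23 to 0.08 in RCO. It was −0.17 to −0.01 in SWOP and −0.16 to −0.06 in control. The GAPDH difference thus had its highest median in RCS (0.04), where the actin difference was lowest. The mean signal of spiked-in foreign transcripts was 10.21 to 10.43 in RCS, 10.52 to 11.09 in RCO, 10.46 to 10.91 in SWOP and 10.58 to 10.66 in control. The interquartile range of log2 signals, a measure of their spread within an array, was 3.27 to 3.44 in RCS and 3.05 to 3.32 in RCO. It was 3.26 to 3.3 in SWOP and 3.04 to 3.16 in control, so every RCS and SWOP array lay above every control array. The part of these properties in the differences below was not tested. With 5 arrays per group precision is limited throughout, and the p-values measure the spread between animals.

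**Figure D1:**
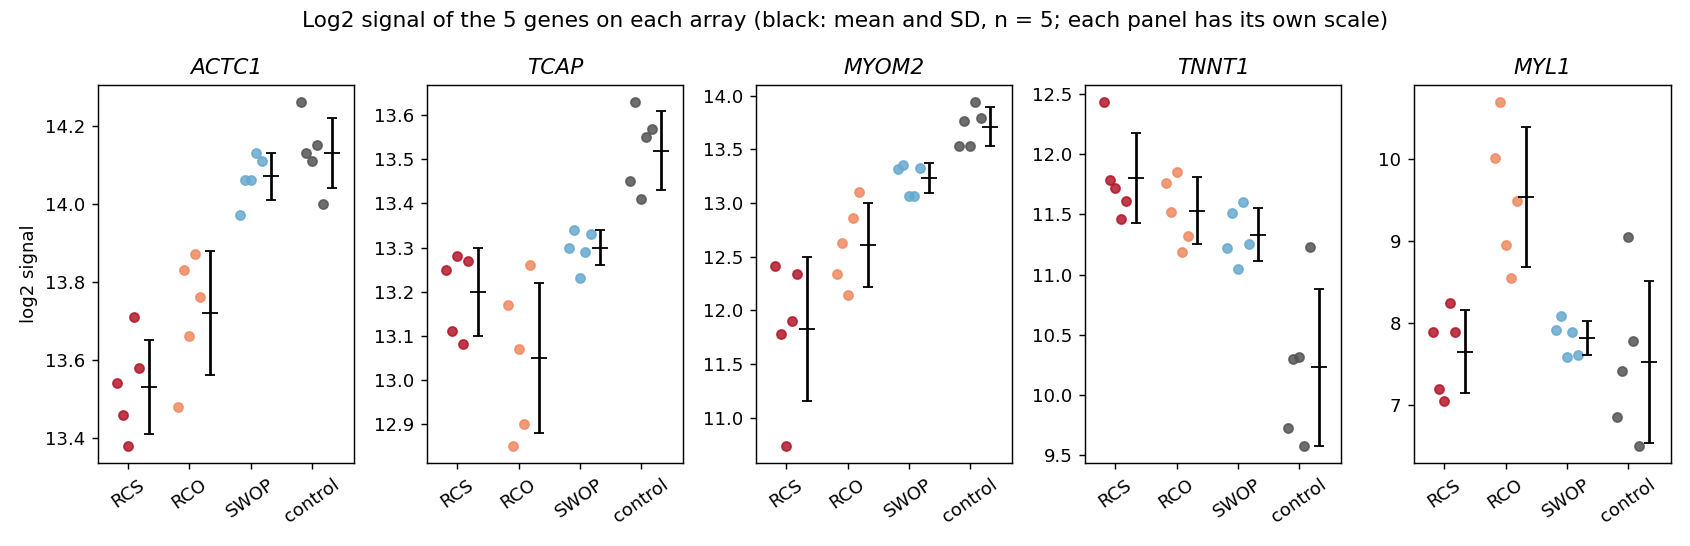
Log2 signal of ACTC1, TCAP, MYOM2, TNNT1 and MYL1 on each of the 20 arrays, in 1 panel per gene with its own vertical scale. Coloured points are arrays of the RCS, RCO, SWOP and control groups, and black marks show the mean and SD of 5 arrays. ACTC1 and MYOM2 stand lowest in RCS, TCAP stands lowest in RCO, TNNT1 stands above control after each protocol apart from control replicate 5, and MYL1 is highest in RCO.

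ACTC1 encodes alpha-cardiac actin, the main actin of the thin filament in heart muscle. Its log2 signal was 13.54, 13.46, 13.38, 13.71 and 13.58 in RCS hearts, 13.48, 13.83, 13.66, 13.87 and 13.76 in RCO hearts, 13.97, 14.06, 14.06, 14.13 and 14.11 in SWOP hearts, and 14.26, 14.13, 14.11, 14.15 and 14 in control hearts. Every RCS and RCO array lay below every SWOP and control array, while SWOP and control overlapped. ACTC1 fell 1.51-fold in RCS (log2 13.53 ± 0.12 against 14.13 ± 0.09, SD, n = 5 each, limma adjusted p = 1.45e-05). It fell 1.33-fold in RCO (13.72 ± 0.16 against 14.13 ± 0.09, adjusted p = 0.0036). In SWOP the difference was −0.06 (95% confidence interval −0.23 to 0.10, adjusted p = 0.638). This probe set is among the brightest of the array, at the 99.8th percentile of mean signal, with the highest deposited value of any probe set at 15.18. Whether signals so near the top of the scale understate a difference was not tested. ACTC1 and the skeletal actin ACTA1 encode nearly identical proteins, no tested probe set carries the symbol ACTA1, and probe sequences were not used here, so a contribution of ACTA1 to this signal was not tested.

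TCAP encodes telethonin, the cap that joins the ends of titin molecules at the Z-disc. In RCS hearts the log2 signal was 13.25, 13.11, 13.28, 13.08 and 13.27, in RCO hearts 13.17, 12.85, 13.07, 12.9 and 13.26, in SWOP hearts 13.3, 13.34, 13.23, 13.29 and 13.33, and in control hearts 13.45, 13.63, 13.41, 13.55 and 13.57. All 15 arrays of the 3 protocols lay below all 5 control arrays, the lowest of which stood at 13.41. The fall was 1.39-fold in RCO (13.05 ± 0.17 against 13.52 ± 0.09, SD, n = 5 each, limma adjusted p = 0.00177) and 1.25-fold in RCS (13.20 ± 0.10 against 13.52 ± 0.09, adjusted p = 0.00253). In SWOP TCAP stood at 13.30 ± 0.04 against 13.52 ± 0.09 in control, a difference of −0.22 that did not pass (95% confidence interval −0.39 to −0.06, adjusted p = 0.0813) although the groups did not overlap. The same SWOP difference passed in a fit of SWOP and control arrays alone (adjusted p = 0.0313). TCAP was the only one of the 3 falling genes with its lowest mean in RCO, but RCS and RCO did not differ for it beyond their spread (RCS minus RCO 0.15, 95% confidence interval −0.02 to 0.31, adjusted p = 0.183).

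MYOM2 encodes myomesin 2, also called M-protein, which cross-links myosin at the M-band. RCS hearts had log2 signals of 12.41, 11.78, 10.74, 11.9 and 12.34, RCO hearts 12.34, 12.63, 12.14, 12.86 and 13.1, SWOP hearts 13.32, 13.35, 13.07, 13.07 and 13.33, and control hearts 13.53, 13.76, 13.53, 13.94 and 13.79. The 5 control arrays stood above all arrays of the 3 protocols, and RCS and RCO overlapped between 12.14 and 12.41. MYOM2 fell 3.67-fold in RCS (11.83 ± 0.67 against 13.71 ± 0.18, SD, n = 5 each, limma adjusted p = 6.89e-06), the largest fall against control among the 5 genes. It fell 2.14-fold in RCO (12.61 ± 0.39 against 13.71 ± 0.18, adjusted p = 0.00602). In SWOP it stood at 13.23 ± 0.14 against 13.71 ± 0.18 in control, and the difference of −0.48 did not pass (95% confidence interval −0.97 to 0.00, adjusted p = 0.192). The same SWOP difference passed in a fit of SWOP and control arrays alone (adjusted p = 0.0114). Without RCO replicates 2 and 3 the RCO fall was −0.94 on the log2 scale (adjusted p = 0.047).

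TNNT1 encodes the troponin T of slow skeletal fibres, the subunit that ties the troponin complex to tropomyosin. Its log2 signal was 12.43, 11.78, 11.72, 11.46 and 11.61 in RCS hearts, 11.76, 11.52, 11.85, 11.19 and 11.32 in RCO hearts, 11.22, 11.51, 11.05, 11.6 and 11.25 in SWOP hearts, and 9.73, 10.3, 10.32, 9.58 and 11.23 in control hearts. Control replicate 5 lay above the other control arrays and within the range of RCO and SWOP, and the other 4 control arrays lay below every treated array. TNNT1 rose 2.96-fold in RCS (11.80 ± 0.37 against 10.23 ± 0.65, SD, n = 5 each, limma adjusted p = 4.94e-05). In RCO it rose 2.46-fold (11.53 ± 0.28 against 10.23 ± 0.65, adjusted p = 0.00286) and in SWOP 2.13-fold (11.33 ± 0.22 against 10.23 ± 0.65, adjusted p = 0.0146). With all 20 arrays in the fit, TNNT1 was the only one of the 5 genes that passed in SWOP. None of the 3 differences between protocols passed with all 20 arrays in the fit, at 0.47 (95% confidence interval −0.03 to 0.97) for RCS minus SWOP, 0.20 (−0.30 to 0.70) for RCO minus SWOP and 0.27 (−0.23 to 0.77) for RCS minus RCO. RCS minus SWOP passed in a fit of those 2 groups alone (adjusted p = 0.0394), and 4 of 5 RCS arrays lay above every SWOP array. The cardiac troponin T gene TNNT2, named here outside the rule for naming genes, fell in RCS (13.93 ± 0.22 against 14.22 ± 0.06, adjusted p = 0.0155). TNNT2 did not pass in RCO, at −0.16 ± 0.09 (SE), or in SWOP, at 0.07 ± 0.09.

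MYL1 encodes an essential light chain of myosin in fast skeletal fibres. In RCS hearts the log2 signal was 7.89, 7.19, 7.05, 8.25 and 7.89, in RCO hearts 10.02, 10.7, 8.95, 8.55 and 9.49, in SWOP hearts 7.91, 8.09, 7.59, 7.89 and 7.61, and in control hearts 6.85, 7.41, 9.05, 7.78 and 6.5. Every RCO array lay above every RCS and SWOP array, while control replicate 3, at 9.05, reached into the RCO range. MYL1 rose 4.07-fold in RCO against control (9.54 ± 0.85 against 7.52 ± 0.99, SD, n = 5 each, limma adjusted p = 0.00407), and 3 of 5 RCO arrays exceeded all control arrays. RCO exceeded SWOP 3.3-fold (9.54 ± 0.85 against 7.82 ± 0.21, adjusted p = 0.0138), and RCS was 3.7-fold below RCO (7.65 ± 0.51 against 9.54 ± 0.85, adjusted p = 0.00531). RCS and SWOP did not pass against control, at 0.14 (95% confidence interval −0.71 to 0.98) and 0.30 (−0.54 to 1.14). The probe set stands at the 72nd percentile of mean signal. Its name ends in a_at, the array maker's mark for probes shared by several transcripts of a gene. Without RCO replicates 2 and 3 the rise was 1.84 on the log2 scale (adjusted p = 0.0212). In a fit of only RCO and control arrays the adjusted p was 0.054 at the same difference.

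**Figure D2:**
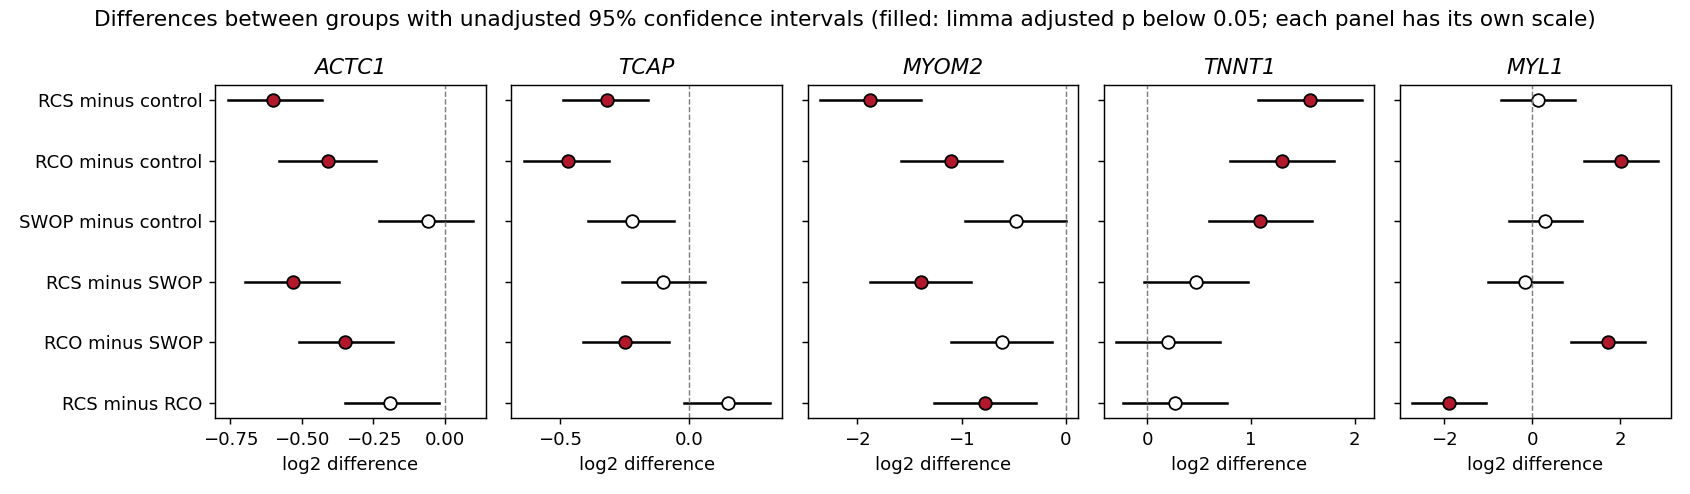
Log2 differences of the 5 genes in the 6 comparisons between groups, in 1 panel per gene with its own horizontal scale. Points are estimates, lines are unadjusted 95% confidence intervals, and filled points passed at a limma adjusted p below 0.05. The filled points lie left of 0 for ACTC1, TCAP and MYOM2 and right of 0 for TNNT1, and MYL1 is filled only in the 3 comparisons that include RCO.

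Set in order of their means, the 4 groups had the same order for ACTC1 and MYOM2 and other orders for TCAP, TNNT1 and MYL1. For ACTC1 the order was control, SWOP, RCO and RCS, and of the neighbours SWOP and RCO differed (adjusted p = 0.013) while control and SWOP (0.638) and RCO and RCS (0.103) did not pass. In a fit of only RCO and SWOP arrays the ACTC1 difference did not pass (adjusted p = 0.0534). RCS and RCO passed for ACTC1 without RCO replicate 1, its lowest array (−0.25, adjusted p = 0.0401). For MYOM2, RCS and RCO differed (RCS minus RCO −0.78, limma adjusted p = 0.0266) while RCO and SWOP (0.0954) and SWOP and control (0.192) did not pass. For MYOM2, RCO and SWOP passed without RCS replicate 3 (−0.61, adjusted p = 0.024). The difference between RCS and RCO was lost without RCS replicate 3, which held the lowest value (−0.51, adjusted p = 0.0659), without RCS replicate 2 (−0.77, 0.0511) and without RCO replicates 4 (−0.72, 0.062) or 5 (−0.66, 0.0796). For TCAP no neighbours in the order control, SWOP, RCS and RCO passed. TCAP passed in RCO against SWOP (−0.25, adjusted p = 0.0496) at the edge of the threshold, and did not pass in 22 of 28 alternative settings, including the fit without RCO replicates 2 and 3 (−0.19, adjusted p = 0.172). For TNNT1 SWOP and control differed (adjusted p = 0.0146), and RCS and RCO (0.436) and RCO and SWOP (0.628) did not pass. For MYL1 RCO and the next group, SWOP, differed (adjusted p = 0.0138), while SWOP and RCS (0.792) and RCS and control (0.801) did not pass. ACTC1 also fell in RCS against SWOP (−0.53, adjusted p = 8.73e-05), as did MYOM2 (−1.39, adjusted p = 0.00021).

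Arrays low for one gene of the cardiac sarcomere were not always low for another. RCS replicate 3 held the lowest signal of all 20 arrays for ACTC1, 13.38, and for MYOM2, 10.74, but its TCAP signal of 13.28 was the highest in RCS. RCO replicate 1 was lowest in its group for ACTC1, at 13.48, and second highest there for TCAP, at 13.17. Taken as deviations from the group means over the 20 arrays, Pearson r was 0.44 between ACTC1 and MYOM2, −0.5 between ACTC1 and TCAP and 0.09 between TCAP and MYOM2. Between TNNT1 and MYL1 it was −0.08. These values share the same arrays and normalization and are given as a description.

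The labelled tissue fits the markers of heart muscle. Of 12 cardiomyocyte markers 9 were measured, and all 9 had a mean signal at or above the 97.2th percentile, among them MYH7, the slow and cardiac myosin heavy chain (lowest array 14.58), MYL2, the ventricular regulatory light chain (14.69), and the cardiac troponin I TNNI3 (14.05). Their mean log2 signal was 13.48 to 13.83 in RCS, 13.5 to 13.78 in RCO, 13.61 to 13.88 in SWOP and 13.56 to 13.83 in control. In RCS 6 of the 9 fell and 1 rose, the atrial natriuretic peptide gene NPPA. NPPA averaged 13.43 in RCS and 10.02 in control. Each of the other cardiomyocyte markers averaged lower in RCS than in control, such as TNNI3 (14.44 against 14.78) and MYH7 (14.83 against 14.87). Because NPPA is part of the mean of the list, that mean does not show the lower level of the other markers in RCS. Beside the counts of markers called here and below, 28.2% of all probe sets fell and 19.3% rose in RCS. The shares lower and higher were 4.81% and 5.9% in RCO, and 4.14% and 3.01% in SWOP. Macrophage markers, 6 of 8 measured, had means of 8.81 to 9.58 in RCS, 7.84 to 9.84 in RCO, 7.43 to 8.05 in SWOP and 7.36 to 8.0 in control, with 5 higher in RCS and 3 in RCO. Fibroblast markers, 6 of 8 measured, had means of 10.6 to 11.37 in RCS, 9.68 to 11.14 in RCO, 9.75 to 10.15 in SWOP and 9.08 to 10.31 in control, with 4 higher in RCS and 2 in RCO. Smooth muscle markers, 6 of 8 measured, ranged from 10.74 to 11.16 in RCS, 10.26 to 10.93 in RCO, 10.32 to 10.85 in SWOP and 9.88 to 10.38 in control, with 4 higher and 2 lower in RCS, 1 higher in RCO and 2 higher in SWOP. The desmin gene DES is among those higher in RCS and in SWOP, and it is counted again below as a Z-disc gene. The calponin gene CNN1 of the smooth muscle list, named outside the rule, averaged 10.84 in RCS, 10.54 in RCO, 10.11 in SWOP and 8.62 in control, highest in RCS and lowest in control as TNNT1 was. ACTA2 of that list had the same order (12.76, 11.77, 11.5 and 11.35). SMTN and MYLK averaged lower in RCS than in control (10.76 against 11.17, and 6.52 against 6.84). Adipocyte markers, 5 of 7 measured, had means of 7.41 to 7.69 in RCS, 7.77 to 8.01 in RCO, 7.69 to 8.28 in SWOP and 7.95 to 9.38 in control, with 3, 2 and 1 lower after the 3 protocols. Endothelial markers, 8 of 8 measured, had means of 8.39 to 9.03 in RCS and 8.01 to 8.87 in RCO. In SWOP these were 8.78 to 9.08 and in control 8.73 to 8.85, with 1 marker higher in RCS and 1 lower in RCO. The part of these lists in the falls of ACTC1, TCAP and MYOM2 and in the rise of TNNT1 was not tested. In such whole-tissue RNA, fewer cardiomyocytes and less RNA per cardiomyocyte cannot be told apart. MYH7, at −0.04 ± 0.06 in RCS, −0.10 ± 0.06 in RCO and −0.04 ± 0.06 in SWOP (SE), did not pass in any of the 3 comparisons with control, at a signal close to the top of the scale.

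Markers of skeletal muscle were measured beside TNNT1 and MYL1. Of 18 such markers 12 were measured, with mean log2 signals of 5.93 to 6.17 in RCS, 6.07 to 6.6 in RCO, 6.28 to 6.39 in SWOP and 6.35 to 6.56 in control. The fast myosin heavy chain MYH2, the muscle regulators MYOD1 and MYF6 and the calcium channel RYR1 were dim, below the 30th percentile of mean signal (log2 5.48). MYH2 had group means of 4.22 in RCS, 4.35 in RCO, 4.43 in SWOP and 4.29 in control. The only marker of this list in the top percentiles, the creatine kinase CKM, is also made in the heart. With limma 0 of the 12 rose after any of the 3 protocols (0 in RCS, 0 in RCO and 1 in SWOP were higher at an unadjusted p below 0.05), while TNNT1 rose after all 3 and MYL1 in RCO. In RCS 8 of the 12 fell, beside 28.2% of all probe sets, and in RCO and SWOP 0 fell (2 and 1 lower at an unadjusted p below 0.05).

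Other skeletal isoforms were read from a list of 23 genes, of which 11 were measured. All of these but MYOZ1 and SLN were also among the skeletal muscle markers above. The counts of both lists therefore rest largely on the same probe sets. In RCO and in SWOP 0 of 11 passed with limma (1 and 2 at an unadjusted p below 0.05), and the list's median difference was −0.06 in RCO and −0.14 in SWOP, beside −0.03 and −0.01 over all probe sets. In RCS 8 of 11 fell, 1 rose and 2 did not pass (28.2% of all probe sets fell and 19.3% rose), with a median of −0.37 beside −0.08 over all probe sets. Among those that fell in RCS were the slow troponin I TNNI1 (7.07 ± 0.25 against 8.25 ± 0.48, SD, n = 5 each, adjusted p = 0.00176) and the fast troponin T TNNT3 (5.48 ± 0.13 against 5.96 ± 0.17, adjusted p = 0.00255). The fast regulatory light chain MYLPF (5.14 ± 0.24 against 5.73 ± 0.17, adjusted p = 0.00554) and the slow myosin-binding protein MYBPC1 (5.6 ± 0.15 against 5.99 ± 0.15, adjusted p = 0.0034) fell too. The gene that rose, named outside the rule, was SLN, which encodes the calcium pump regulator sarcolipin and is also made in the atria (8.91 ± 1.49 in RCS against 6.39 ± 0.24 in control, adjusted p = 0.00588). SLN stood at 0.98 ± 0.69 in RCO and 0.90 ± 0.69 in SWOP (SE), where it did not pass. Of 3 atrial markers measured, 2 rose in RCS, SLN and NPPA, and NPPA is also counted among the cardiomyocyte markers above. MYL4, the remaining atrial marker, averaged 9.23 in RCS and 9.53 in control and did not pass. Of these 11 probe sets 9, all but TNNI1 and SLN, lay below the 50th percentile of mean signal. Among all probe sets that dim 33.1% were called lower in RCS, at a median of −0.14, and after quantile normalization 6 of the 11 genes fell in place of 8. TNNT1 and TNNI1, both of slow skeletal fibres, therefore differed from control in opposite directions in RCS.

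**Figure D3:**
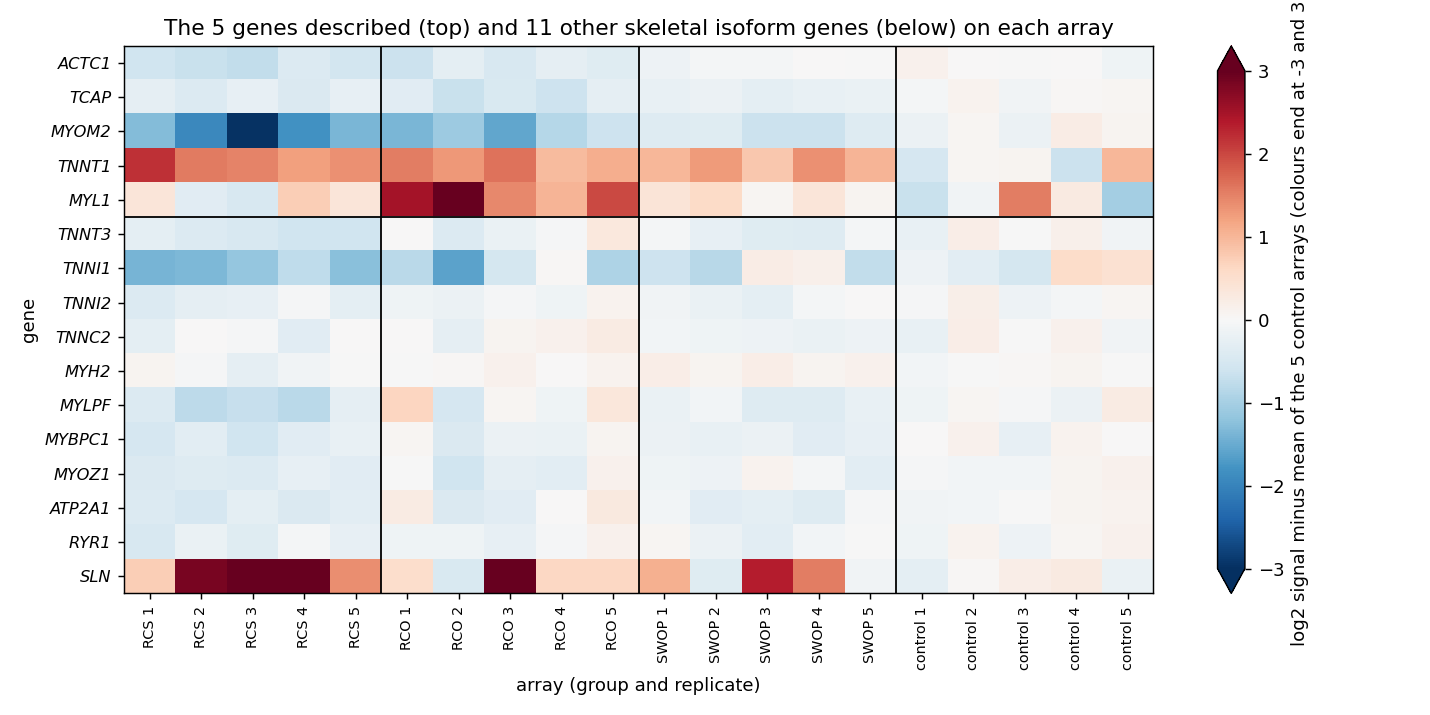
Log2 signal minus the mean of the 5 control arrays for the 5 genes described (upper rows) and the 11 other skeletal isoform genes (lower rows), with 1 column per array in the order RCS, RCO, SWOP and control. Red is higher and blue lower than control, and colours end at −3 and 3. TNNT1 is red on all 15 arrays of the protocols, MYL1 is red across RCO, and most lower rows are pale apart from TNNI1 and SLN.

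The other genes of the sarcomere were read from 5 lists with 92 members, of which 54 were measured, each by its brightest probe set. In RCS 11 of the 54 rose, 27 fell and 16 did not pass, or 70.4% called beside 47.5% of all probe sets, with a median difference of −0.27 beside −0.08 over all probe sets. In RCO 5 rose, 3 fell and 46 did not pass (14.8% called beside 10.7%, median −0.08 beside −0.03). In SWOP 3 rose, 3 fell and 48 did not pass (11.1% called beside 7.15%, median −0.02 beside −0.01). The RCO and SWOP shares are near those of all probe sets. Many of the 54 are bright, and above the 95th percentile of mean signal 33.3% of probe sets rose and 30.5% fell in RCS. The shares that rose and fell there were 16.4% and 7.42% in RCO, and 6.25% and 0.667% in SWOP. For the 4 lists below, the shares of all probe sets to set beside a count in RCS are 19.3% higher and 28.2% lower. Those of the bright probe sets are 33.3% and 30.5%. Without RCO replicates 2 and 3, 2 of the 54 passed in RCO, the tropomyosin gene TPM4 and the cochaperone gene BAG3.

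On the thin filament, to which ACTC1 belongs, 15 of 17 listed genes were measured, and in RCS 3 rose and 8 fell, or 73.3% called beside 47.5%. Those that rose were the tropomyosins TPM3, with 2 of its 3 probe sets called, and TPM4, with 2 of 2 called, and the actin-binding Xin-repeat gene XIRP2. TPM3 rose 3.29-fold (11.67 ± 0.31 against 9.95 ± 0.25, SD, n = 5 each, limma adjusted p = 4.76e-06). TPM4 rose 4.14-fold (12.69 ± 0.29 against 10.64 ± 0.33, adjusted p = 3.69e-06), and XIRP2 4.58-fold (11.78 ± 0.55 against 9.58 ± 0.66, adjusted p = 7.93e-05). Both tropomyosins are also made in many cell types other than muscle. The same 3 genes rose in RCO, at 0.91, 1.23 and 1.12 on the log2 scale (0.53, 0.76 and 1.16 without RCO replicates 2 and 3, where only TPM4 passed), and no thin filament gene of the list fell there. The cardiac troponin C gene TNNC1 fell in RCS (14.09 ± 0.15 against 14.45 ± 0.02, adjusted p = 0.000521). In SWOP TPM2 rose by 0.54 ± 0.16 and the nebulin relative NEBL fell by 0.61 ± 0.13 (SE). TPM2 was also called in RCS, in the other direction (−0.38 ± 0.16, adjusted p = 0.0495), and in SWOP it did not pass in 10 of 28 other settings. XIRP2 in RCO did not pass in 20.

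Thick filament genes, 7 of 13 measured, fell in 2 cases in RCS, rose in none and did not pass in 5, or 28.6% called, a share of falls near that of all probe sets. The ventricular essential light chain MYL3, the cardiac counterpart of MYL1, fell 1.45-fold (14 ± 0.26 against 14.54 ± 0.03, SD, n = 5 each, limma adjusted p = 0.00014), and titin, TTN, fell 1.33-fold (13.85 ± 0.10 against 14.26 ± 0.05, adjusted p = 0.000254). TTN also fell in RCO, by 0.34 ± 0.07 (SE, adjusted p = 0.0068), with both of its probe sets called, but did not pass without RCO replicates 2 and 3 (−0.28, adjusted p = 0.063). In SWOP SMYD1, a methyltransferase of sarcomere assembly, rose by 0.50 ± 0.14 (adjusted p = 0.0403), and did not pass in 8 of 28 other settings. MYL4, the atrial essential light chain, did not pass in any comparison with control, at −0.30 ± 0.36 in RCS, −0.03 ± 0.36 in RCO and −0.34 ± 0.36 in SWOP.

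Z-disc genes, 15 of 28 measured beside TCAP, rose in 6 cases and fell in 5 in RCS, or 73.3% called beside 47.5%. The capping protein gene CAPZB rose by 0.76 ± 0.12 and the small heat shock protein gene CRYAB by 0.66 ± 0.13 (SE). Of 3 CAPZB probe sets 2 were called higher, and the lowest stood at −0.16. Desmin, DES, rose by 0.79 ± 0.15 on its brightest probe set, while its other probe set was called lower, at −0.23. The second probe set of CRYAB stood at −0.44 and did not pass. SORBS2, an adaptor of the Z-disc, fell by 0.68 ± 0.14 on 1 of 3 probe sets. In RCO the cochaperone BAG3 rose by 1.12 ± 0.23 with both probe sets called, and NRAP, a scaffold of myofibril assembly, fell by 0.49 ± 0.15 (adjusted p = 0.0462). In SWOP DES rose by 0.60 ± 0.15, and ANKRD1, a stress-responsive ankyrin-repeat protein that binds titin, and SORBS2 fell by 0.45 ± 0.11 and 0.46 ± 0.14. These SWOP calls were made on 1 of 2 probe sets of DES (the other at −0.13), 1 of 2 of ANKRD1 and 1 of 3 of SORBS2 (the highest at 0.25). Of 28 other settings DES did not pass in 5, ANKRD1 in 7 and SORBS2 in 15, and NRAP in RCO did not pass in 17. ANKRD1 was called in the other direction in RCS (0.29 ± 0.11, adjusted p = 0.0428).

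Genes of the M-band list, 6 of 11 measured beside MYOM2, fell in 4 cases and rose in 1 in RCS, or 83.3% called beside 47.5%. The list is broad, and not all of its proteins belong to the M-band itself, CKMT2 being mitochondrial. CMYA5, a large protein of the muscle cytoskeleton, fell 2.26-fold (11.90 ± 0.40 against 13.07 ± 0.23, SD, n = 5 each, limma adjusted p = 3.01e-05). Muscle creatine kinase, CKM, fell 1.88-fold (13.34 ± 0.51 against 14.25 ± 0.04, adjusted p = 0.000219) and its mitochondrial relative CKMT2 fell 1.62-fold (12.49 ± 0.54 against 13.19 ± 0.19, adjusted p = 0.00646). MYOM1, the other myomesin measured and named here outside the rule, fell 1.59-fold (11.99 ± 0.37 against 12.66 ± 0.26, adjusted p = 0.00672). It stood at −0.20 ± 0.19 in RCO and 0.16 ± 0.19 in SWOP (SE), where it did not pass. The LIM protein gene FHL1 rose in RCS by 0.90 ± 0.19 and in RCO by 0.59 ± 0.19 (adjusted p = 0.0497), a call lost in 19 of 28 other settings. In RCO CMYA5 fell by 0.60 ± 0.17 (adjusted p = 0.0288), and without RCO replicates 2 and 3 it stood at −0.43 (adjusted p = 0.212).

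**Figure D4:**
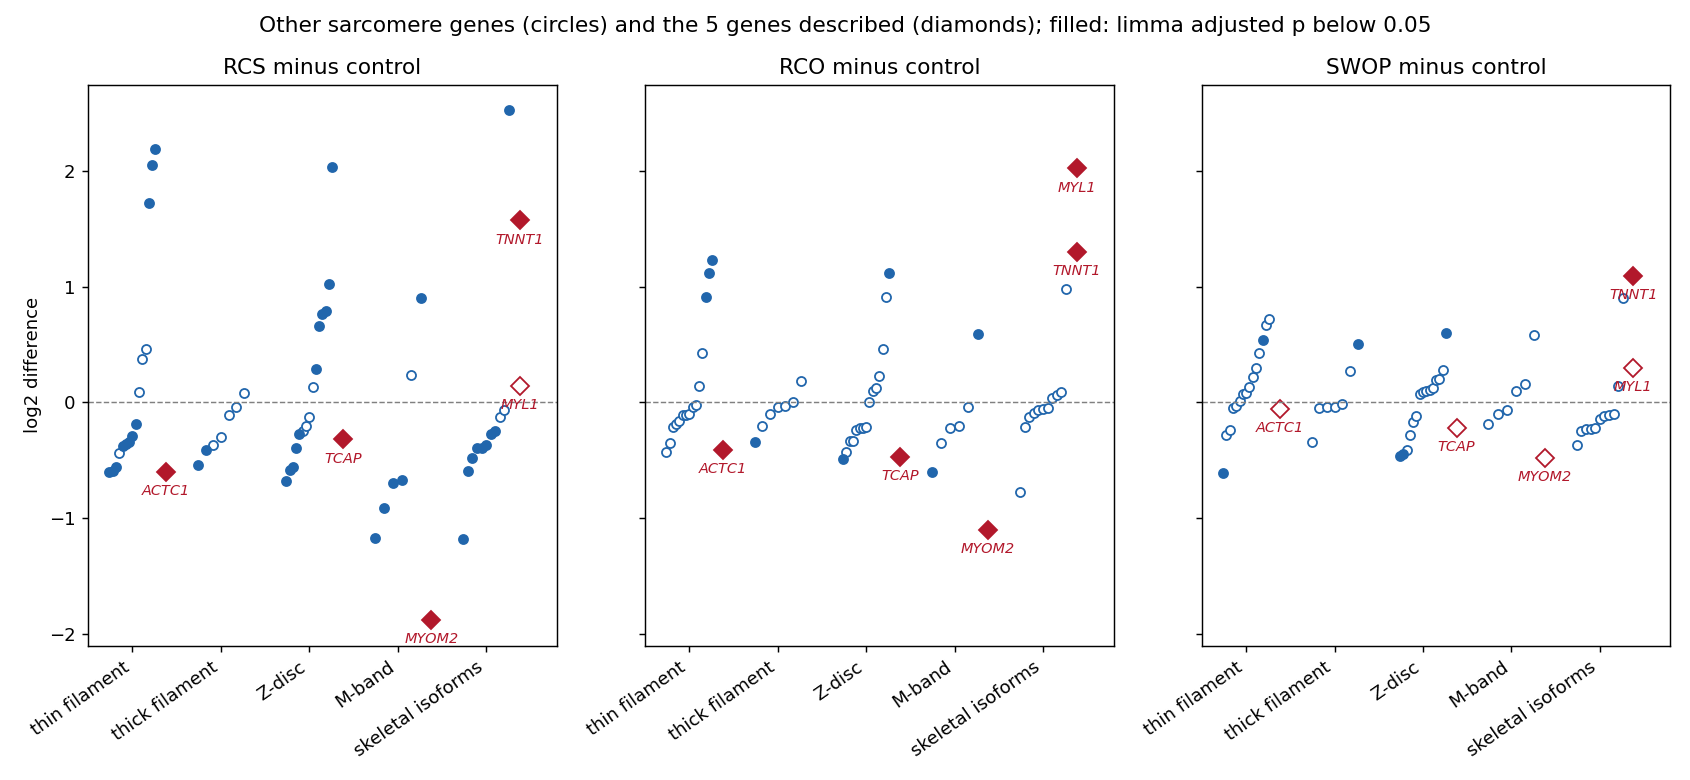
Log2 differences from control in RCS, RCO and SWOP for the 54 measured sarcomere genes of 5 lists (blue circles, sorted within each list) and for the 5 genes described (red diamonds, placed beside the list they belong to). Filled symbols passed at a limma adjusted p below 0.05. In RCS 38 of 54 circles are filled, against 8 in RCO and 6 in SWOP.

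Genes whose signal ran most like each of the 5 were found by Pearson r over the 20 arrays among 5630 other genes, with r of the deviations from group means in brackets as a measure free of the group differences. For MYOM2 they were BCAT2, a mitochondrial aminotransferase, at 0.95 (0.85), ADHFE1 at 0.95 (0.82) and CKM at 0.95 (0.92). ADHFE1, a dehydrogenase, averaged 8.11 in RCS, 9.4 in RCO, 10.62 in SWOP and 10.83 in control, the same order as MYOM2. For ACTC1 they were KAT7, a histone acetyltransferase, at 0.94 (0.69), GAB1 at 0.94 (0.56) and CYP27A1 at 0.94 (0.58). TNNT1 ran most like DAD1, a subunit of the enzyme that glycosylates proteins, at 0.9 (0.67), TAF10 at 0.89 (0.64) and SERF2 at 0.88 (0.56). TCAP ran most like MTMR3, a lipid phosphatase, at 0.85 (0.56), UBE3D at 0.84 (0.65) and EIF2B4 at 0.82 (0.35). MYL1 had no match above 0.65, the value for the chemokine gene CCL19 (0.39 within groups), followed by DCTPP1 and TTLL1 at 0.64 each (0.33 and 0.41). CCL19 averaged 6.39 in RCS, 7.01 in RCO, 6.43 in SWOP and 6.55 in control, with its highest mean in RCO as for MYL1. Of these 15 genes CKM was the only one on a sarcomere list, and no p-value is attached to a ranking of this kind.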

How the data were processed

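The authors deposited log2 values, 1 per probe set and array. RMA and MAS5 are named in the submitters' processing notes, without version or role, and base 2 was taken from the range of the values (3.22 to 15.18). Of 24123 probe sets 124 control spots were left out. Of the tested probe sets 10069 had 1 symbol, 198 several and 13732 none, and 9961 symbols were updated or checked through RefSeq gene identifiers. No batch is given in the labels.

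A mean per group was estimated from the 20 arrays in limma 3.58.1 (lmFit and eBayes, R 4.3.3), leaving 16 residual degrees of freedom. Each of 6 group differences was tested, adjusting p-values over all probe sets by Benjamini-Hochberg. Standard errors (SE) and 95% confidence intervals come from this fit. The fit was also run on simulated arrays with independent noise, equal spread in all groups and known differences in RCS only. Those arrays lack the shared variation and unequal spreads of the real ones, so they cannot vouch for calls that depend on these. Genes other than the 5 were named by rule: up to 4 per list and comparison with control, of smallest p among those that passed, and per gene the 3 of highest Pearson r over the 20 arrays, above the 30th percentile of mean signal. Exceptions are marked. The 5 genes and all lists were chosen with earlier results of these data known. Summaries used pandas 2.3.3 and numpy 2.4.6 in Python 3.11.15, and plots used matplotlib 3.10.9.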

Additional observations from a re-analysis of the deposited data

How the results depend on the processing

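Each comparison was repeated under 28 other settings: quantile normalization, array medians set equal, dim probe sets left out, an intensity trend with robust spread, a replicate block, a fit of only the 2 groups compared, each of the 20 arrays left out in turn, RCO replicates 2 and 3 left out, and, chosen after seeing the data, the 2 arrays of highest spike-in signal left out. Against control the calls of ACTC1, TCAP, MYOM2 and TNNT1 in RCS and RCO and of TNNT1 in SWOP held in all 28, and that of MYL1 in RCO in 27. The exception was the fit of RCO and control alone (adjusted p = 0.054). The sign of MYL1 in RCS, which never passed, turned to −0.01 without RCS replicate 4, −0.03 without control replicate 1 and −0.12 without control replicate 5, and single arrays left out gave at most 0.52 (without control replicate 3).

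Fits of only the 2 groups compared moved the count of the 5 genes called to 3 in SWOP against control (TCAP and MYOM2 added), where 1 was reported, to 3 in RCS against SWOP (TNNT1 added), where 2 were, to 1 in RCO against SWOP (ACTC1 and TCAP lost), where 3 were, and to 1 in RCS against RCO (MYOM2 lost), where 2 were. Counts over all 23999 probe sets moved the same way in these fits. In SWOP against control 4091 passed where 1716 were reported, and in RCS against SWOP 8636 where 6989 were. In RCO against SWOP 863 passed where 2414 were reported, and in RCS against RCO 931 where 4572 were. With single arrays left out the count of the 5 genes was 1 in SWOP, 5 in RCO and 4 in RCS against control, 2 to 3 in RCO against SWOP, 2 in RCS against SWOP and 1 to 3 in RCS against RCO. It was 1 there without RCS replicates 2 or 3 or RCO replicates 4 or 5.

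The counts of other sarcomere genes ran from 33 to 40 in RCS against control (38 reported), 4 to 8 in RCO (8 reported), 1 to 8 in SWOP (6 reported), 24 to 31 in RCS against SWOP (29 reported), 1 to 10 in RCO against SWOP (5 reported) and 6 to 21 in RCS against RCO (15 reported) with single arrays left out. In SWOP against control the count was 1 without SWOP replicates 2, 3 or 4, 2 without SWOP replicate 5 or control replicates 2 or 4, and 3 without control replicate 5. In RCO against control it was 4 without RCO replicate 3 or control replicate 2, and 5 without RCS replicate 2, SWOP replicates 1, 2, 3 or 4, or control replicates 1 or 4. In RCO against SWOP it was 1 without SWOP replicate 5, 2 without RCO replicate 3 or SWOP replicate 2, 8 without RCS replicate 5 or RCO replicate 4, and 10 without RCO replicate 5. In RCS against RCO it was 6 and 9 without RCS replicates 3 and 2, and 7 and 8 without RCO replicates 5 and 4. Fits of only 2 groups gave 1 in RCO against control, in RCO against SWOP and in RCS against RCO. Without RCO replicates 2 and 3 the counts were 2 in RCO against control and 25 in RCS against RCO, and 5 without the spike-in arrays in RCO against control. Averaging a gene's probe sets gave 2 in SWOP against control and 10 in RCO against SWOP. Without dim probe sets it was 8 in RCO against SWOP. The replicate block also gave 8, and MYOM2 then passed (adjusted p = 0.0427), but the numbers were not taken to pair the animals: 10 of 30 same-numbered pairs of arrays deviated together at r above 0.1, and 11 of 20 arrays correlated best with an array of their own number. The cause of these moves was not tested.

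Of all probe sets 1716 passed in SWOP against control, with 480 (without control replicate 4) to 2748 (without RCO replicates 2 and 3) when arrays were left out, 957 after quantile normalization and 4091 in the fit of 2 groups. In RCO against control 2571 passed, with 1135 (without RCO replicates 2 and 3) to 4251 (without RCO replicate 5), and 564 with 2 groups. In RCO against SWOP it was 2414, and 863 with 2 groups. In RCS against RCO it was 4572, with 2053 (without RCS replicate 3) to 9052 (without RCO replicates 2 and 3), and 931 with 2 groups.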
